A study of Homo sapiens with 16 samples.

Results

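Binding of p53 and of CTCF was examined at 9 p53 target genes that act in or feed into the mitochondrial pathway of apoptosis, namely BBC3, PMAIP1, BAX, AEN, TP53I3, PERP, TP53AIP1, TP53INP1 and APAF1. Every peak of the 8 ChIP-seq peak lists that lay within 50 kb of the body of one of these genes was taken, with genes from GENCODE on hg19. This rule gave 76 peaks of the 76863 in the series, 18 of 5699 for p53 and 58 of 71164 for CTCF. Overlapping peaks of the 4 libraries of a factor were merged into sites, which left 8 p53 sites of 2980 and 21 CTCF sites of 29064.

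The cells were MCF10A, an immortalized, non-tumorigenic human mammary epithelial line, and the same line carrying the G12V form of the HRAS oncogene, delivered by lentivirus together with a GFP vector and selected with hygromycin (H-RAS Gv12 in the labels, G12V below). The MCF10A samples are labelled as parental. Both cell types were treated with Nutlin, which blocks the degradation of p53 by MDM2, before fixation for p53 ChIP. Every p53 library therefore shows activated p53, and no untreated p53 library was analysed here. The study's methods name Nutlin for p53 ChIP only, so the p53 and CTCF sites set side by side below may not share a treatment. Each factor was profiled in 2 replicate libraries per cell type, described by the study as biological replicates. As recovered from the peak statistics, the p53 ChIP depth was 21.4 M reads in MCF10A replicate 1, 20.1 M in MCF10A replicate 2, 9.26 M in G12V replicate 1 and 33.2 M in G12V replicate 2. Their lists held 1718, 885, 477 and 2619 peaks, so the G12V replicates were the shallowest and the deepest of the 4 p53 libraries and differed most in list length. The peak names inside the 477-peak list carry the word old and the number 2, although its sample is G12V replicate 1. Those of the 2619-peak list carry no replicate number. The study itself reports 477 peaks for replicate 1 and 2619 for replicate 2 of the G12V p53 libraries. What the word old stands for is unknown, and counts are also given without the shorter list. At the genome-wide background, the fewest summit reads of a called peak were 9, 7, 10 and 15 in the same order.

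In the mitochondrial pathway, cell stress is relayed by BH3-only proteins such as the products of BBC3 (PUMA) and PMAIP1 (NOXA), which neutralize the survival proteins of the BCL2 family and so let BAX open pores in the outer mitochondrial membrane. Cytochrome c released through the pores assembles with the APAF1 protein into the apoptosome, which activates caspases. p53 is a transcription factor that switches on many of these genes after binding to a DNA element made of a pair of short palindromic repeats, and CTCF is a DNA-binding protein best known for its role at insulators and at the edges of chromosomal domains.

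The sequences under the p53 summits are shown first because they carry the element that p53 recognizes. The p53 motif, a 20 bp pair of repeats in which the invariant C and G of each repeat had to match, was searched without a spacer, allowing at most 3 mismatches, in the 151 bp around each summit. Capitals mark the match, and each sequence is hg19 and reads along the strand of its gene. Of the sites called in all 4 libraries, AEN lies at chr15:89164532-89164561 on the plus strand and BAX at chr19:49458394-49458544 on the plus strand, each with 2 mismatches. The intronic BBC3 site at chr19:47734560-47734710 on the minus strand and the PMAIP1 site at chr18:57566961-57567111 on the plus strand each held a match with 3 mismatches.
AEN: gagccGGGCTTGCCCGGGCATGTGGgagct
BAX: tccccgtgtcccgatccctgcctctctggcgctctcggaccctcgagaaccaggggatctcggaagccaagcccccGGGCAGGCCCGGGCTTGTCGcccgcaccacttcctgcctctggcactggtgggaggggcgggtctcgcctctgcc
BBC3 intron: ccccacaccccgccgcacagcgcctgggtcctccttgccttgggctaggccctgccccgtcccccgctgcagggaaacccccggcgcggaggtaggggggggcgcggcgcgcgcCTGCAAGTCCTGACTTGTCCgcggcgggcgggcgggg
PMAIP1: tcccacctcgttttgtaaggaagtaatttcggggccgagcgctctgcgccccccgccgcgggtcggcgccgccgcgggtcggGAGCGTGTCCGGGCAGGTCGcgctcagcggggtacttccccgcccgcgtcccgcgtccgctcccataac

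The CTCF motif match at TP53I3 is shown because it is the only such match near the 9 genes under a CTCF peak that overlapped a p53 peak. It lies at chr2:24307330-24307359 on the minus strand, with 1 mismatch, and capitals mark it. The p53 site beside it, in an exon annotated as untranslated region of TP53I3, held no p53 motif match, and the closest alignment there had 6 mismatches.
TP53I3 CTCF motif: aggcgctggCCGGCAGGGGGCgctgcggtg

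The p53 sites found at these genes were close to the starts. All 8 p53 sites lay within 1.5 kb of the start of their own gene, between 701 bp upstream and 1487 bp downstream, although sites up to 50 kb away were admitted. The 1.5 kb limit was set after these distances were seen, to cover the farthest of them. Among the 2234 p53 sites of the series within 50 kb of a protein-coding gene body, 8.28% lay within 1.5 kb of the start of a protein-coding gene, and the median distance to the nearest such start was 28.8 kb. Over all 2980 p53 sites the share was 6.21%. It was 9.64% among the 332 sites called in all 4 libraries and 9.67% among those called in G12V replicate 2 alone. The CTCF sites around the same genes were spread through the windows, from 47.7 kb upstream to 98.3 kb downstream of the starts.

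**Figure D1:**
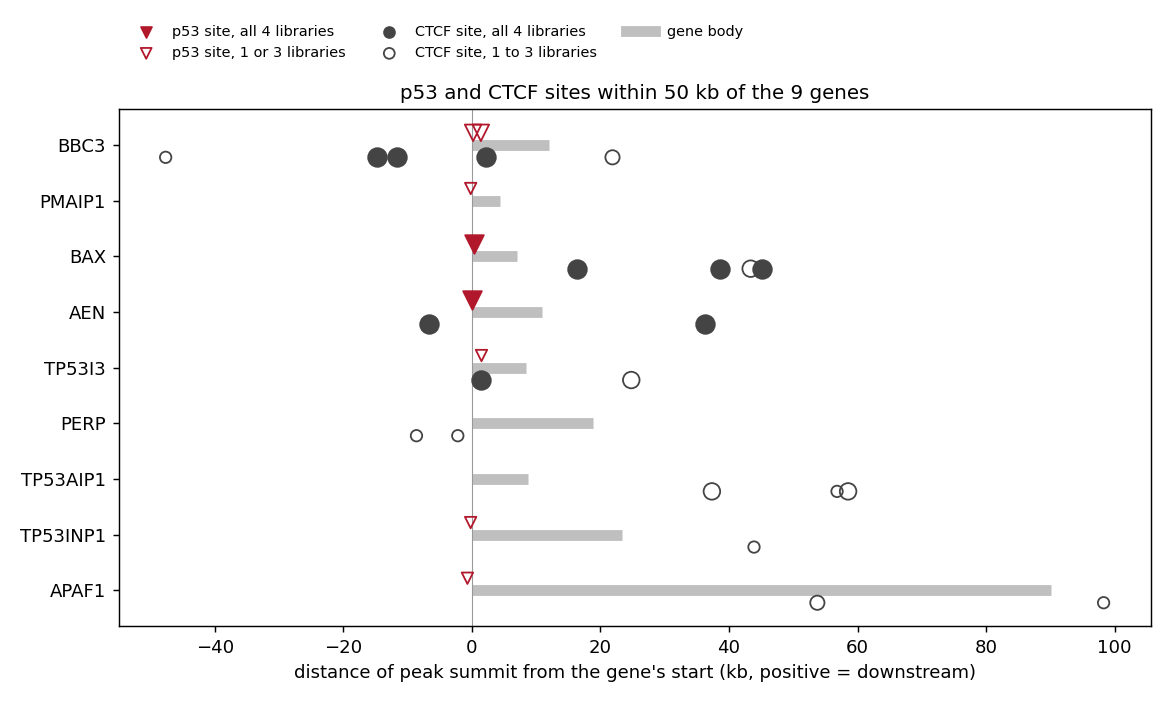
p53 sites (triangles) and CTCF sites (circles) by the distance of the summit from the start of the gene in kb, with the gene body in grey, 1 row per gene. Filled symbols were called in all 4 libraries of the factor, open symbols in fewer, and symbol size grows with the number of libraries, and all 8 p53 sites sit within 1.5 kb of a start while CTCF sites reach 98.3 kb.

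A p53 peak was found at 3 of the 9 genes (33.3%) in MCF10A replicate 1, MCF10A replicate 2 and G12V replicate 1, and at 7 of 9 (77.8%) in G12V replicate 2. Over all 20163 protein-coding genes, the shares with a p53 peak within 50 kb were 10.7%, 5.9%, 3.47% and 17.1% in these libraries. The genes with a peak in the first 3 libraries were BBC3, BAX and AEN each time, and G12V replicate 2 added PMAIP1, TP53I3, TP53INP1 and APAF1. PERP and TP53AIP1 had no p53 peak in any library. A site of any library was near 7 of the 9 genes, against 18.9% of all protein-coding genes, and a site of all 4 libraries was near BAX and AEN, against 2.4%.

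**Figure D2:**
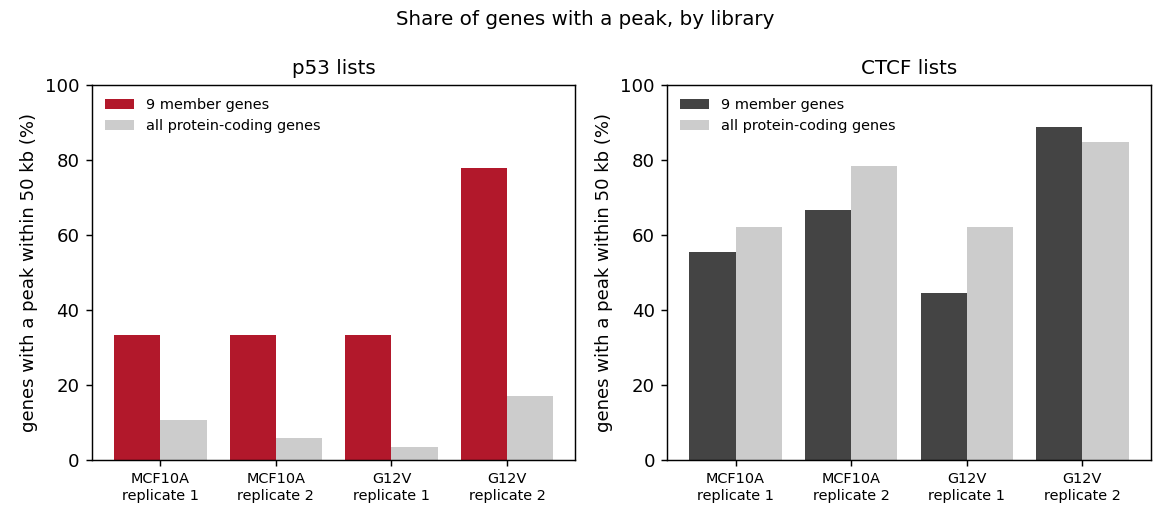
Percentage of genes with a p53 peak (left) or a CTCF peak (right) within 50 kb in each library, for the 9 genes (coloured bars) and for the 20163 protein-coding genes (grey bars). For p53 the 9 genes stand at 33.3% in 3 libraries and at 77.8% in G12V replicate 2, above the grey bars of 3.47% to 17.1%, while for CTCF they range from 44.4% to 88.9% around grey bars of 62.1% to 84.7%.

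To ask whether p53 binding at these genes differed upon HRAS transformation, the numbers per library were compared between cell types by an exact permutation test (two-sided, all 6 ways to divide the libraries), whose smallest possible p is 0.333. The number of genes with a p53 peak averaged 3.0 ± 0.0 in the MCF10A libraries and 5.0 ± 2.83 in the G12V libraries (SD, n = 2), and the exact permutation p was 1.0. The number of p53 peaks was 3 in both MCF10A libraries and 4 and 8 in G12V replicates 1 and 2, and the exact permutation p was 0.333. The higher G12V means rested on G12V replicate 2, since without it the mean difference was 0.0 genes and 1 peak. Without G12V replicate 1, whose peak names carry the word old, the differences were 4 genes and 5 peaks. Each p53 list was then reduced to its 477 strongest peaks. There the MCF10A libraries held 2 and 1 of the genes and the G12V libraries 3 and 4. Peaks numbered 2 and 1 against 4 and 4, so the groups did not overlap in either count. Both exact permutation p values were 0.333. No share over all protein-coding genes was taken at this list length, so these counts have no background beside them. Of the 8 sites, 2 were called in all 4 libraries, 2 in 3 libraries and 4 in G12V replicate 2 alone, and none was called in MCF10A libraries only. Over the series, 11.1% of p53 sites were called in all 4 libraries and 38.5% in G12V replicate 2 alone. The series share of sites called in MCF10A libraries only was not taken, so their absence here has no background beside it.

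**Figure D3:**
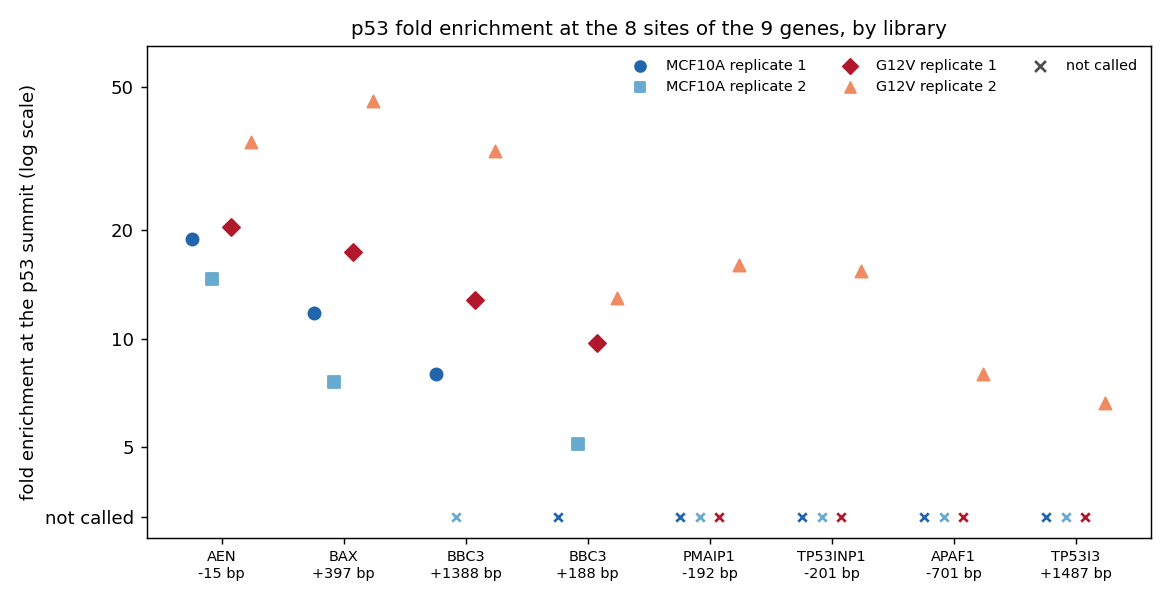
Fold enrichment at the p53 summit (log axis) for the 8 sites, named by gene and by distance of the summit from the start, with 1 symbol per library and a cross where no peak was called. At AEN and BAX all 4 libraries had a peak, with the highest value in G12V replicate 2 (35.2 and 45.7-fold), and the 4 sites on the right had a peak in that library alone.

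AEN encodes a nuclease that takes part in DNA breakdown during apoptosis, and it had the strongest p53 site of the group in the MCF10A libraries. The summit was 15 bp upstream of the start, at chr15:89164302-89165037. In MCF10A replicates 1 and 2 the peak was enriched 18.9- and 14.7-fold, and in G12V replicates 1 and 2 it was enriched 20.4- and 35.2-fold. The reads at the summit were 40, 26, 40 and 197, against local backgrounds of 1.16, 0.842, 1.01 and 3.06 reads, where the 197 reads of G12V replicate 2 count as 142 after the caller's scaling to its input. Within its list the AEN peak ranked 263 of 1718, 141 of 885, 39 of 477 and 49 of 2619 by −log10 q, so both G12V ranks were higher in their lists (92.0 and 98.2 percentiles) than both MCF10A ranks (84.7 and 84.2 percentiles).

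BAX, the pore-forming member of the BCL2 family, carried its p53 site 397 bp downstream of the start, at chr19:49457915-49458779. This position is exonic in a BAX transcript without a coding sequence and intronic in the others that span it. The 2 MCF10A libraries showed 11.8- and 7.56-fold enrichment, and the 2 G12V libraries 17.4- and 45.7-fold. The summit reads were 38, 18, 33 and 163, and the peak ranked 441, 507, 73 and 54 in the lists, at the 74.4, 42.8, 84.9 and 98.0 percentiles. Both G12V libraries were above both MCF10A libraries in fold enrichment and in percentile.

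The lists differ in length, so AEN and BAX were also ranked among the 332 p53 sites that all 4 libraries share. There AEN ranked 189 and 111 in MCF10A and 37 and 45 in G12V, and BAX ranked 246 and 264 in MCF10A and 65 and 50 in G12V. Both G12V libraries thus placed both sites higher than either MCF10A library did. The same held for 27.7% of the 332 sites on this scale and for 13.3% by list percentile. The median percentile of the 2 sites was 71.5 ± 11.4 in MCF10A and 93.3 ± 6.79 in G12V (SD, n = 2), a difference of 21.7 with an exact permutation p of 0.333, the smallest this design allows.

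On the log2 scale, the mean fold enrichment of the G12V libraries exceeded that of the MCF10A libraries by 0.69 at AEN and by 1.58 at BAX. Across the 332 shared sites this difference had a median of 0.13 and quartiles of -0.28 and 0.57. AEN thus stood at the 80.1 percentile of the shared sites and BAX at the 99.1 percentile. The 2 canonical p53 targets used as reference lay on the same side, by 0.74 at the CDKN1A start, where p53 controls the cell-cycle inhibitor p21, and by 1.13 at the MDM2 site 792 bp downstream of its start, which feeds back on p53 itself. These differences carry no p of their own, with 2 libraries on each side.

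**Figure D4:**
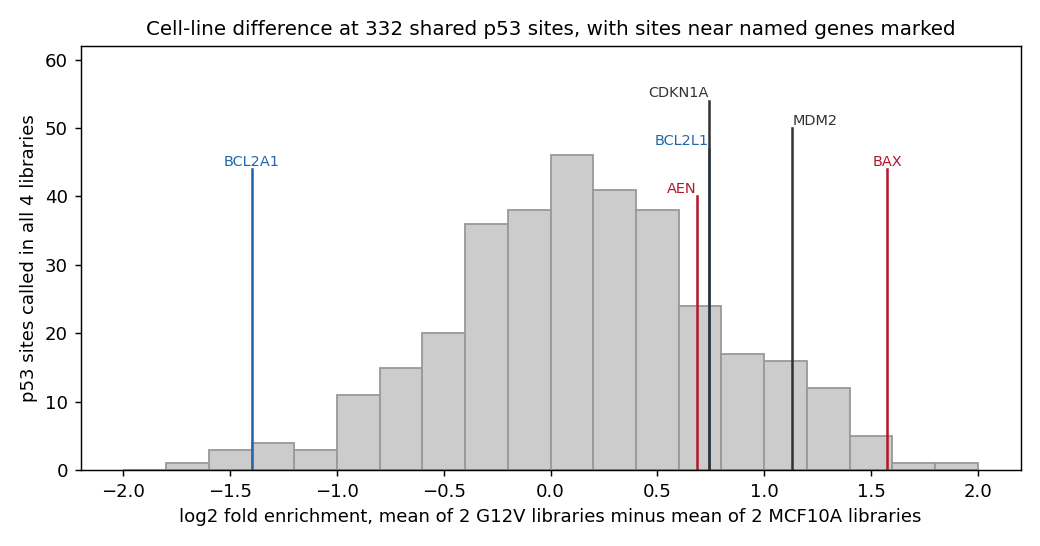
Histogram of the difference in log2 fold enrichment, mean of the 2 G12V libraries minus mean of the 2 MCF10A libraries, for the 332 p53 sites called in all 4 libraries, with vertical lines at sites near AEN and BAX (red), BCL2L1 and BCL2A1 (blue) and CDKN1A and MDM2 (black). BAX lies at 1.58 near the upper end and BCL2A1 at -1.40 near the lower end, with AEN at 0.69, while the lines of BCL2L1 and CDKN1A coincide at 0.74.

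BBC3 had a p53 peak in every library, but not at a single site. The intronic site at chr19:47734404-47734989 lay 1388 bp downstream of the longest transcript's start and 179 bp upstream of the start of a shorter BBC3 transcript. It was called at 7.99-fold (17 reads) in MCF10A replicate 1, 12.8-fold (24 reads) in G12V replicate 1 and 33.1-fold (152 reads) in G12V replicate 2, and it was not called in MCF10A replicate 2. It ranked 1072, 126 and 92 in these 3 lists. Of the 100 peaks nearest to it in strength in the G12V replicate 2 list, 50 ranks on each side, 89% were called in MCF10A replicate 2.

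The other BBC3 site, at chr19:47735623-47736025, lay 188 bp downstream of the start in the first exon, where the summit is coding. It was called at 5.11-fold (9 reads) in MCF10A replicate 2, 9.71-fold (18 reads) in G12V replicate 1 and 12.9-fold (65 reads) in G12V replicate 2, and was not called in MCF10A replicate 1. The rank was 857 of 885 in MCF10A replicate 2, near the bottom of that list, and 238 and 647 in the G12V lists. The closest alignment of the p53 motif there had 4 mismatches, 1 more than allowed. Of the 100 peaks of G12V replicate 2 nearest to it in strength, 72% were called in MCF10A replicate 1. Both BBC3 sites were called in both G12V libraries and each in 1 MCF10A library.

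The remaining 4 p53 sites were called in G12V replicate 2 alone, the deepest library. At PMAIP1, whose product is the BH3-only protein NOXA, the summit was 192 bp upstream of the start at chr18:57566746-57567221, with 16.1-fold enrichment, 63 reads and rank 545 of 2619. Of the 100 peaks of that list nearest to it in strength, 81% were called in MCF10A replicate 1, 42% in MCF10A replicate 2 and 29% in G12V replicate 1. Most peaks of this strength were thus called in MCF10A replicate 1 but not in the other 2 libraries. The part that depth or fragment length (279 bp in G12V replicate 1 and 180 bp in G12V replicate 2) played in this was not tested.

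At APAF1, the scaffold of the apoptosome, the summit was 701 bp upstream of the start at chr12:99038212-99038650, inside a coding exon of the divergent neighbour IKBIP. The start of IKBIP was nearer to this summit, at 524 bp. The APAF1 site had 7.98-fold enrichment, 30 reads and rank 1524, and a p53 motif with 3 mismatches. At TP53I3, which encodes a quinone oxidoreductase linked to oxidative stress, the p53 site at chr2:24307009-24307458 had 6.63-fold enrichment, 26 reads and rank 1881. Its summit was 1487 bp downstream of the start of the longest transcript and 48 bp upstream of another TP53I3 start. Of the 100 peaks of G12V replicate 2 nearest in strength to each, 49% (APAF1) and 30% (TP53I3) were called in MCF10A replicate 1 and 2% and 0% in G12V replicate 1, so peaks of this strength were rarely called in the other G12V library.

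TP53INP1 encodes a nuclear stress protein that cooperates with p53. Its p53 site was 201 bp upstream of the start, at chr8:95961641-95962249, in an exon of a transcript of the neighbouring gene NDUFAF6, and was called in G12V replicate 2 at 15.4-fold with 84 reads and rank 442. Of the 100 peaks nearest to it in strength, 85% were called in MCF10A replicate 1, 54% in MCF10A replicate 2 and 41% in G12V replicate 1. No p53 motif without a spacer was found in its window, and a match with 3 mismatches appeared once a spacer of 7 bp was allowed.

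PERP, a desmosomal membrane protein that p53 induces during apoptosis, and TP53AIP1, a mitochondrial protein, had no p53 peak within 50 kb of chr6:138409642-138428556 and chr11:128804626-128813294. Absence from the lists means that binding was not detected at these depths, not that the sites were free of p53.

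The p53 motif was present at 5 of the 8 sites (62.5%, exact 95% binomial interval 24.5 to 91.5), at 70.4% of all p53 sites and at 88.9% of those called in all 4 libraries. In windows 2000 bp beside the summits of all p53 sites, 0.973% held it. The AP-1 motif (TGAGTCA or TGACTCA, either strand) was in none of the 8 windows and in 6.74% of all p53 windows.

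CTCF was also mapped around the 9 genes, to ask whether its binding near them differed between the cell types. It was called at 5, 6, 4 and 8 of the 9 genes in MCF10A replicates 1 and 2 and G12V replicates 1 and 2, against 62.1%, 78.3%, 62.2% and 84.7% of all protein-coding genes. The members' shares of 55.6%, 66.7%, 44.4% and 88.9% were therefore near the background. A CTCF site of all 4 libraries was near 4 of the 9 genes (BBC3, BAX, AEN and TP53I3), against 51.6%, and a site of any library near 8, against 85.5%. PMAIP1 had no CTCF peak within 50 kb in any library. The number of CTCF peaks was 13 ± 2.83 for MCF10A and 16 ± 7.07 for G12V (SD, n = 2), the replicates within a cell type differed by more than the cell types, and the exact permutation p was 1.0. Reduced to the 11346 strongest peaks of each list, the 4 CTCF libraries held 11, 13, 11 and 12 peaks near the genes.

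Of the 21 CTCF sites, 9 were called in all 4 libraries (42.9%), against 27.5% of CTCF sites in the series. The CTCF motif, with at most 1 mismatch, was at 14 of the 21 (66.7%) and at 52.4% of all CTCF sites. BBC3 had the most, with 5 sites, of which 3 were called in all 4 libraries. The site with the best mean rank lay in the BBC3 intron 2153 bp from the start, 765 bp from the intronic p53 summit, and ranked 777, 553, 33 and 3298 in the lists, at the 93.2, 97.3, 99.7 and 88.1 percentiles. The site 11652 bp upstream ranked higher than it in 2 libraries, at 452 in MCF10A replicate 1 and 501 in G12V replicate 2. The motif of the intronic site was on the plus strand of the chromosome, and that of the site 14820 bp upstream of the start was on the minus strand, so the start of BBC3 and both of its p53 sites lay between the 2 motifs.

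AEN had CTCF sites 6626 bp upstream and 36187 bp downstream of its start, both called in all 4 libraries, and BAX had 4 CTCF sites, 16.3 to 45.1 kb downstream, of which 3 were called in all 4. The CTCF sites of PERP, 2200 and 8627 bp upstream of its start, and the single one of TP53INP1, were called in G12V replicate 2 alone, the longest CTCF list. TP53AIP1 had 3 CTCF sites and none in G12V replicate 1. APAF1 had 1 site inside the gene, called in the replicate 2 library of each cell type, and another past its end, in G12V replicate 2 alone.

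The TP53I3 site was the only 1 of the 8 p53 sites that overlapped a CTCF peak, and that CTCF site was called in all 4 CTCF libraries. The p53 and CTCF summits were 116 bp apart, and over the series 3.09% of p53 sites overlapped a CTCF site. The CTCF peak there was enriched 5.11- and 11.3-fold in the MCF10A libraries and 9.61- and 10.1-fold in the G12V libraries, so the groups overlapped in fold. By list percentile they did not, with 25.5 and 60.8 in MCF10A and 86.8 and 71.6 in G12V. The AEN site 6626 bp upstream behaved alike, with 64.0 and 69.7 in MCF10A and 84.0 and 95.8 in G12V. At the other member sites of all 4 CTCF libraries the percentiles of the groups overlapped. The share of all CTCF sites without overlap was not taken.

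**Figure D5:**
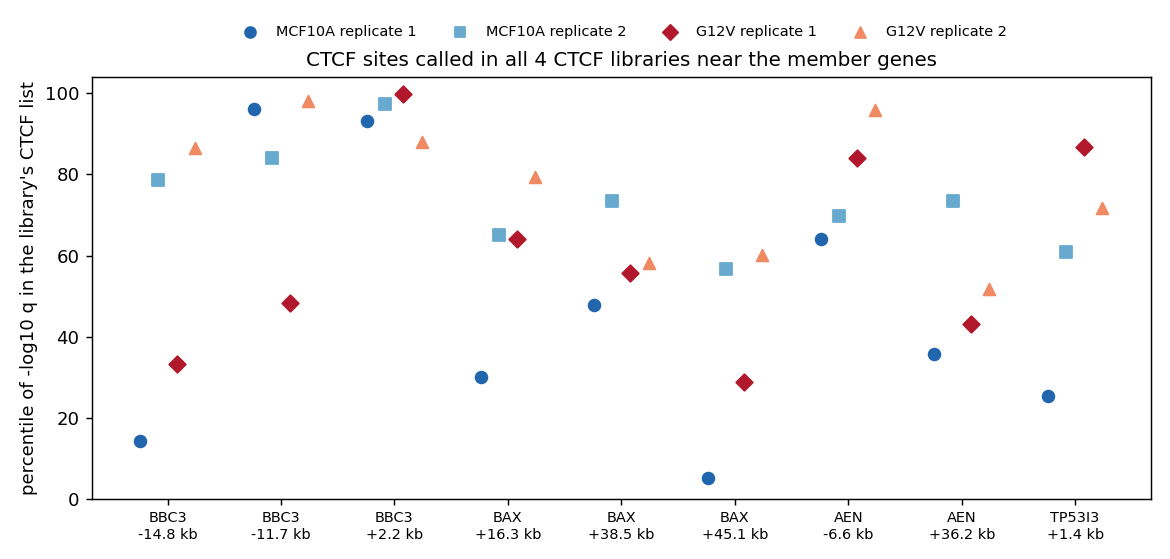
Percentile of the −log10 q of each CTCF peak within its library's list, for the 9 CTCF sites near the genes that were called in all 4 CTCF libraries, named by gene and by distance of the summit from the start in kb. The intronic BBC3 site stays between 88.1 and 99.7 in all 4 libraries, and the 2 cell types overlap at most sites.

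Other genes of the pathway were taken from a list of 22, made of other BCL2 family members and of factors of the mitochondrion and the apoptosome. A p53 peak lay within 50 kb of 3, 3, 2 and 4 of them in the 4 libraries (13.6%, 13.6%, 9.09% and 18.2%), beside the 10.7%, 5.9%, 3.47% and 17.1% of all protein-coding genes, a difference of few genes in each library. A site of all 4 libraries was near 2 of the 22 (9.09%), against 2.4% of all protein-coding genes. These 2 were BCL2L1 and BCL2A1, both of which encode survival proteins of the BCL2 family. The BCL2L1 site, 24.5 kb downstream of the start, had folds of 8.68, 6.25, 7.88 and 19.2 and ranked 311, 307, 232 and 172 among the 332 shared sites.

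The BCL2A1 site, 32.2 kb upstream of the start, ran the other way. It was enriched 38.3- and 16.2-fold in the MCF10A libraries but 6.70- and 13.3-fold in the G12V libraries, and it ranked 26 and 92 in MCF10A and 271 and 267 in G12V among the shared sites. Both G12V values lay below both MCF10A values, as they did at 27.7% of the shared sites on this scale and at 14.2% by list percentile. The log2 difference of -1.40 was at the 1.51 percentile of the shared sites. The BAX site and the distal site near the survival gene BCL2A1 thus stood near opposite ends of the shared sites. Each cell type had 2 libraries, and no p below 0.333 was possible. Whether p53 at the distal site acts on BCL2A1 was not tested. The other survival gene with a shared site, BCL2L1, went the same way as BAX, by 0.74 (82.2 percentile).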

How the data were processed

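The authors aligned each ChIP library to hg19 with Bowtie, kept uniquely aligned reads and called peaks with MACS2 against an input at an FDR of 5%. Versions are not given in the sources used here. The deposited lists, 1 per library, give a score, the fold enrichment (a ratio over local background), and −log10 values of the summit's p and q. The 8 inputs entered only through the caller. The study pooled replicates for its own comparisons, which were not used. Peaks of a factor sharing 1 bp or more became a site, assigned to genes of GENCODE release 44 mapped to GRCh37. Ranks are by −log10 q within a list. Depth and summit reads were solved from fold and p (100% of solvable peaks gave whole reads within 0.05), for a genome of 2.7 Gb, after duplicates were removed by the caller. They cover counting error only. Members, gene lists and tests were chosen with earlier results of these data known. The genes named were the 9 members, pathway genes with a p53 site of all 4 libraries, and CDKN1A and MDM2 as reference. The pathway list held BAK1, BOK, BID, BAD, BIK, BMF, HRK, BCL2L11, BCL2, BCL2L1, BCL2L2, MCL1, BCL2A1, CYCS, CASP9, DIABLO, HTRA2, XIAP, ENDOG, AIFM1, VDAC1 and VDAC2, and 2 further genes of the list are not reported here. Scripts ran in Python 3.11.15 with numpy 2.4.6, pandas 2.3.3 and scipy 1.17.1, and were tested on simulated data. Alternatives were other gene windows, a −log10 q of at least 5, lists of equal length, a stricter overlap, other ranks, other motif settings, a replicate block and each library left out.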

Additional observations from a re-analysis of the deposited data

How the results depend on the processing

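Replicate numbers shared by the cell types were checked for pairing site by site. The correlation of their deviations over sites of all 4 libraries was 0.0218 for p53 and 0.0488 for CTCF. A shift of whole libraries shared by replicate number would not show in this correlation, so pairing was not excluded. In both cell types the replicate 1 CTCF list was the shorter, while the p53 lists had no such common order. With the replicate as a block, the differences of 2 genes, 3 p53 peaks, 3 CTCF peaks and 21.7 percentile points were the same by construction, with exact p of 1.0, 0.5, 1.0 and 0.5, where 0.5 is the smallest p this fit allows. With each list reduced to the length of the shortest of its factor, sites of all 4 libraries and genes with one both numbered 1 in place of 2, since BAX was no longer called throughout, and the CTCF difference reversed to -0.5 peaks. Leaving out each library in turn gave differences of 0 to 4 genes with a p53 peak, 1 to 5 p53 peaks, -2 to 8 CTCF peaks (reversed without G12V replicate 2) and 16.9 to 48.6 percentile points. Sites in G12V libraries only ranged from 0 (without G12V replicate 2) to 5. The motif share was 25% with at most 2 mismatches. No p passed a threshold in any setting, as the design allows none. Absence from a list is limited by that library's depth.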

Other observations

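Matches to the p53 motif with at most 1 mismatch were counted over the whole 50 kb windows of the 9 genes. The PMAIP1 window held 1 such match, 13019 bp from the start, and the PERP window held 1, at 3339 bp from the start. None was in a p53 peak of any library, and none occurred in the other 7 windows. Of the 8 p53 sites that were called, 5 carried matches without a spacer with 2 or 3 mismatches. The other 3 had no match of that quality without a spacer.

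Among the 22 other pathway genes, BIK, which encodes a BH3-only protein, had a p53 site about 14.7 kb upstream of its start that was called in MCF10A replicates 1 and 2 and G12V replicate 2 at 15.2, 15.7 and 15.4-fold, and not in G12V replicate 1. BCL2 had a p53 peak in G12V replicate 2 alone, 7.66-fold. Both were chosen after their values were seen. The remaining 18 genes, BAK1, MCL1 and CASP9 among them, had none in any library.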
